A study of Mus musculus with 36 samples.

Results

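Toll-like receptor transcripts were examined in BMDMs (bone marrow-derived macrophages) of C57BL/6 mice. The genes were chosen by name from the deposited count table, and are Tlr1, Tlr2, Tlr3, Tlr4, Tlr5, Tlr6, Tlr7, Tlr8, Tlr9 and Tlr13, which makes 10 of 54532 genes. The table holds 12 Toll-like receptor genes in all, and Tlr11 and Tlr12, which were not chosen, had group means of at most 0.43 CPM (counts per 1000000 counted read pairs). The macrophages were grown from the marrow of female mice in MCSF for 7 days. KO cells came from LysM-Cre;Bmal1 flox/flox mice (n = 6 replicates), in which the myeloid Lyz2 (LysM) promoter drives Cre, and WT cells from Bmal1 flox/flox mice without Cre (n = 3), so all cells carried floxed Bmal1 alleles. Each replicate was treated for 6 h with DMSO vehicle, 100 µM CCM in DMSO, 100 nM LPS in DMSO or LPS with CCM, giving 36 libraries. CCM is the study's small-molecule ligand of the PASB domain of the clock transcription factor BMAL1, and LPS is the endotoxin of Gram-negative bacteria. The labels give no age, and the comparisons ask how LPS, CCM and loss of Bmal1 affect macrophage transcripts.

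Toll-like receptors are membrane proteins that bind microbial molecules through leucine-rich repeats and signal through a cytoplasmic TIR domain. TLR1, TLR2, TLR4, TLR5 and TLR6 act at the cell surface on bacterial lipids, LPS and flagellin, whereas TLR3, TLR7, TLR8, TLR9 and TLR13 sit in endosomes and bind nucleic acids. TLR4 with its co-receptor MD-2 (Ly96) is the receptor for LPS, so LPS here engages 1 of the 10 receptors directly. All of these receptors except TLR3 signal through the adaptor MYD88. TLR3 signals through TRIF (Ticam1), and TLR4 uses both.

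The libraries held 13469262 to 28288923 counted read pairs, with a median of 19951421. All 7 macrophage markers had a mean of at least 1 CPM, with a summed level of 11236 to 19952 CPM per library. Summed dendritic cell markers reached at most 7.07 CPM, B cell markers 10.1 CPM and T cell markers 3.63 CPM, while neutrophil markers ranged from 381 to 1163 CPM and fibroblast markers (collagen genes and Dcn) from 293 to 1648 CPM. The targeted gene (Arntl, the Bmal1 gene) had 7.27 to 12.9 CPM in WT and 2.13 to 10.7 CPM in KO libraries, counted over the whole gene, including exons outside the deleted part. The 4 libraries labelled KO replicate 2 held Arntl at 7.74 to 10.7 CPM and Lyz2 at 11048 to 14663 CPM, above the other KO libraries (5913 to 10186 CPM) and inside the WT range of 10418 to 15054 CPM. The 4 libraries of KO replicate 6 stood apart, with long genes low relative to short genes, and KO LPS+CCM replicates 2 and 5 did so to a smaller degree. Results in KO cells are therefore given with and without these libraries. In bulk RNA, fewer cells of a type and less RNA per cell cannot be told apart.

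Unstimulated WT macrophages carried transcripts of all 10 receptors, and Tlr13, a sensor of bacterial ribosomal RNA, ranked first. Levels between genes are compared as CPM per kb of gene length. Tlr13 stood at 115 ± 1.22 CPM per kb in WT vehicle libraries (mean ± SD, n = 3), followed by Tlr8 at 33.03 ± 2.44, Tlr7 at 20.4 ± 0.12 and Tlr2 at 19.3 ± 0.19. Tlr1 (10.2 ± 0.46) and Tlr4 (10.2 ± 1.23) overlapped, as did Tlr9 (4.36 ± 0.59) and Tlr6 (4.15 ± 0.29). Tlr3 lay at 1.88 ± 0.19, and Tlr5, the flagellin receptor, was last at 0.21 ± 0.058 CPM per kb. After LPS the order in WT changed to Tlr2 (247 ± 4.33 CPM per kb), Tlr1 (86.1 ± 0.94) and Tlr7 (76.6 ± 0.32), with Tlr13 (56.8 ± 1.01) and Tlr8 (56.5 ± 2.01) overlapping behind them. Tlr3 (18.6 ± 0.80) and Tlr6 (17.9 ± 0.88) overlapped next, ahead of Tlr4 (8.68 ± 0.59), Tlr9 (6.54 ± 0.71) and Tlr5, which had 0 counts.

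**Figure D1:**
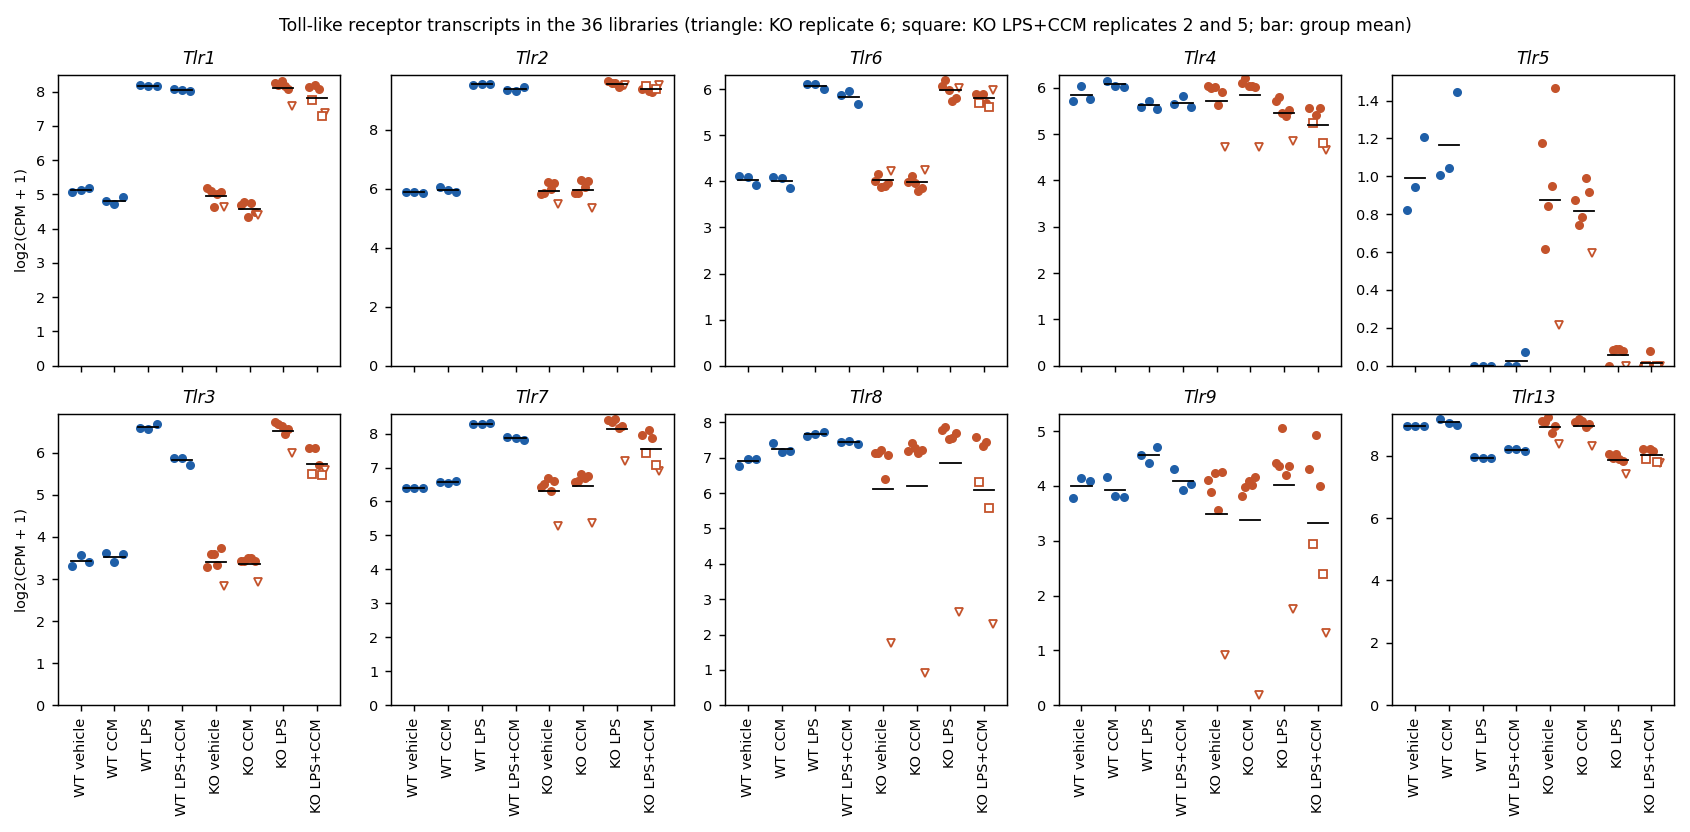
Level of the 10 Toll-like receptor transcripts in each of the 36 libraries, as log2(CPM + 1) on axes that start at 0, by genotype and treatment (blue WT, n = 3; orange KO, n = 6; bar, group mean). Tlr1, Tlr2, Tlr3, Tlr6 and Tlr7 separate LPS from no LPS without overlap in both genotypes, and the open triangles of KO replicate 6 lie far below the other KO points for Tlr8 and Tlr9.

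LPS raised the transcripts of the receptors for bacterial lipopeptides in WT macrophages. Of the 10 receptors, 9 passed the test (edgeR's quasi-likelihood test, adjusted p of at most 0.05 over all tested genes), 7 of them higher and 2 lower, where 63.0% of all 14501 tested genes passed, 30.6% higher and 32.4% lower. The median log2 fold change was 1.35 over the receptors and -0.05 over all tested genes. Tlr2, which pairs with TLR1 or TLR6, was at 58.5, 58.4 and 57.5 CPM with vehicle and at 729, 755 and 745 CPM with LPS. No library of one group reached the other, and the log2 fold change was 3.68 (SE 0.056, adjusted p = 2.7e-11), a 12.8-fold rise. Tlr1 was at 32.4, 34.4 and 35.5 CPM with vehicle and at 292, 286 and 287 CPM with LPS, a log2 fold change of 3.08 (SE 0.061, adjusted p = 7.51e-11). Tlr6 rose from 16.2, 16.0 and 14.2 CPM to 68.5, 68.8 and 62.9 CPM, a log2 fold change of 2.11 (SE 0.074, adjusted p = 4.08e-09). Neither gene's groups overlapped. Tlr1 and Tlr6 lie next to each other on chromosome 5 (64924679 to 64933563 and 64952031 to 64960097, minus strand, mm10), and their transcripts share 454 stretches of 50 bases, 13.6% of those of Tlr1 and 12.3% of those of Tlr6, so reads from these stretches could not be told apart.

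The LPS receptor itself and the flagellin receptor did not follow this rise. Tlr4 was at 51.8, 64.3 and 53.2 CPM with vehicle and at 47.3, 51.9 and 45.5 CPM with LPS. These groups overlapped at 51.8 and 51.9 CPM, and the log2 fold change of -0.22 (SE 0.092) missed the threshold (adjusted p = 0.0595). The adjusted p ranged from 0.000226 to 0.617 over 13 alternatives, 6 of which called Tlr4 lower. Tlr5 had 0.77, 0.93 and 1.31 CPM with vehicle, 86 counts in all, and 0 counts in 3 of 3 LPS libraries. Tlr5 was called lower with LPS (adjusted p = 0.000123). Against a limit of 3 counts over the 3 LPS libraries the ratio was 22.4. The exact 95% interval of the ratio ran from 17.8 upward without an upper end (counting error only).

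The receptors for nucleic acids split in direction. Tlr3, the receptor for double-stranded RNA, was at 8.85, 10.8 and 9.64 CPM with vehicle and at 94.96, 94.3 and 102 CPM with LPS, a log2 fold change of 3.32 (SE 0.085, adjusted p = 4.29e-10). Its interval on chromosome 8 (45395665 to 45411080, minus strand) overlaps Gm45542 on the other strand, and reads of these genes cannot be told apart, as it is not given whether counting used strand. Tlr7, a receptor for single-stranded RNA, stood at 83.4, 82.5 and 83.3 CPM with vehicle and at 313, 311 and 313 CPM with LPS, a log2 fold change of 1.92 (SE 0.051, adjusted p = 5.68e-10). Tlr8, its neighbour on the X chromosome, rose less, from 108, 123 and 124 CPM to 196, 203 and 210.0 CPM (log2 fold change 0.78, SE 0.069, adjusted p = 4.42e-06). Tlr9, the receptor for unmethylated CpG DNA, rose from 12.8, 16.6 and 16.1 CPM to 22.6, 20.3 and 25.3 CPM (log2 fold change 0.59, SE 0.12, adjusted p = 0.00183). Tlr13 went the other way, again without overlap. It was at 499.8, 490.4 and 491 CPM with vehicle and at 249, 244 and 240.4 CPM with LPS, and fell by 1.01 on the log2 scale (SE 0.051, adjusted p = 5.99e-08).

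Scaling by total counts alone in place of TMM factors moved the median log2 fold change of all genes with LPS from -0.05 to -0.47 in WT and from -0.05 to -0.44 in KO. No receptor changed sign in either genotype under it. In WT the call of Tlr9 was lost (log2 fold change 0.18, adjusted p = 0.235) and Tlr4 was called lower at -0.63, so that 6 receptors were higher and 3 lower instead of 7 and 2, where 73.2% of all genes passed, 17.6% higher and 55.6% lower. In 1 fit of all 36 libraries the rises of Tlr8 (adjusted p = 0.627) and Tlr9 (adjusted p = 0.649) in WT lost their calls and 7 receptors passed (35.9% of genes).

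The 250 bases before the transcription start of the receptor genes were read from RefSeq windows on GRCm38.p6. Of the 10 genes, 8 matched a window, Tlr1 and Tlr6 with alternative starts, and none was given for Tlr4 and Tlr7. They are shown for Tlr2 and Tlr3, with the largest rises among genes with 1 window, for Tlr6 and Tlr1 at the start that holds an ISRE core or an E-box, and for Tlr13, which fell. Capitals mark letters that match a kB-like motif (GGG and CC separated by 5 free bases), the core of the interferon-stimulated response element (ISRE, GAAA and GAAA separated by 2 free bases) or the E-box bound by CLOCK and BMAL1 (CACGTG), searched on both strands.
Tlr2, chr3:83841609-83841858, minus strand: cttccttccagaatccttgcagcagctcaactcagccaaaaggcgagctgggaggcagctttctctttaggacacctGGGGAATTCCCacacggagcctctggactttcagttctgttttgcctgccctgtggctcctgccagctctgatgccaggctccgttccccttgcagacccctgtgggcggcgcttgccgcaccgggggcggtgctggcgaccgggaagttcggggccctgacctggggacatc
Tlr3, chr8:45410381-45410630, minus strand: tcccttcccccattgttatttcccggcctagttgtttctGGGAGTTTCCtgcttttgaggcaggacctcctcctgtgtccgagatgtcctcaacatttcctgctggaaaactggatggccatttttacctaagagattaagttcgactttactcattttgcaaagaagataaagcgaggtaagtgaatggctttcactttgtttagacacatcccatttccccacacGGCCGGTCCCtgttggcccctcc
Tlr6, chr5:64959167-64959416, minus strand: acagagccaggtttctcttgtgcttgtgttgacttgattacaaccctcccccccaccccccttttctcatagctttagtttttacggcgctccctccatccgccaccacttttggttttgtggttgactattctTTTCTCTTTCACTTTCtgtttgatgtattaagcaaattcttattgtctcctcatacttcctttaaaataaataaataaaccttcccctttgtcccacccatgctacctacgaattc
Tlr1, chr5:64932700-64932949, minus strand: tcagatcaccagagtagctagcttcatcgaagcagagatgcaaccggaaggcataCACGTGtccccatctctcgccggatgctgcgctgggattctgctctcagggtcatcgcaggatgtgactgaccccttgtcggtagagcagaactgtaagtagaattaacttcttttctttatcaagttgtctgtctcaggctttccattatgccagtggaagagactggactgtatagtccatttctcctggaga
Tlr13, chrX:106143025-106143274, plus strand: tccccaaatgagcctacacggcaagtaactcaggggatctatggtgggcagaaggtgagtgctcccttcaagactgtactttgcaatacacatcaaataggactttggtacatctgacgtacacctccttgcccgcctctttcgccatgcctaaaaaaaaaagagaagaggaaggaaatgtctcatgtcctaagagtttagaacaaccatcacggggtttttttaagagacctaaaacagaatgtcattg
The Tlr2 window held overlapping kB-like matches at -173 and -172, counted from the start site, and these share GGGAATTCCC, which reads the same on both strands. The Tlr3 window held kB-like matches at -211 and -23. Overlapping ISRE cores stood at -116 and -110 in the Tlr6 window, on the other strand, and an E-box at -195 in the Tlr1 window. Of the same 250 bases before all 32851 starts in the table, 45.8% held a kB-like match, 6.02% an E-box and 2.98% an ISRE core. Tlr5, which fell with LPS, also had a kB-like match, at -20, and the other Tlr6 window had one at -99. In the windows of Tlr8, Tlr9 and Tlr13 and the other Tlr1 window none of these letters was present. The matches describe sequence and were not tested as sites.

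LPS raised Tlr1, Tlr2, Tlr3, Tlr6 and Tlr7 and lowered Tlr13 in KO macrophages. Of the 9 receptors tested, 6 passed, 5 higher and 1 lower, where 47.1% of 13648 genes passed, 22.4% higher and 24.7% lower. Tlr2 was at 43.4, 59.4 and 73.8 CPM with vehicle (lowest, median and highest of 6) and at 696, 747 and 807 CPM with LPS, a log2 fold change of 3.61 (SE 0.13, adjusted p = 2.3e-10). Tlr1 rose by 3.18 (SE 0.14, adjusted p = 1.24e-09), Tlr3 by 3.21 (SE 0.17, adjusted p = 6.54e-09) and Tlr6 by 2.01 (SE 0.11, adjusted p = 8.19e-09), in 6 of 6 replicates each. Tlr7 rose by 1.80 (SE 0.24, adjusted p = 3.08e-05), and Tlr13 fell by 1.09 (SE 0.15, adjusted p = 4.68e-05), from 328, 517 and 604 CPM to 170, 239 and 265 CPM. These groups did not overlap for any of the 6.

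The levels behind these calls spread more among the 6 KO than among the 3 WT libraries for most receptors. Tlr1 was at 24.0, 32.1 and 35.1 CPM with vehicle (lowest, median and highest) and at 192, 289 and 315 CPM with LPS. Tlr6 was at 13.8, 14.9 and 17.6 CPM with vehicle and at 52.6, 63.4 and 72.5 CPM with LPS. Tlr3 was at 6.11, 10.02 and 12.3 CPM with vehicle and at 62.7, 96.04 and 105 CPM with LPS. None of these 3 genes had overlapping groups. Tlr7 was at 38.2, 87.9 and 101 CPM with vehicle and at 146, 309 and 340.1 CPM with LPS. Tlr8 was at 2.41, 137 and 149 CPM with vehicle and at 5.2, 197 and 235 CPM with LPS. Tlr9 was at 0.88, 15.0 and 18.1 CPM with vehicle and at 2.38, 19.5 and 32.5 CPM with LPS. For Tlr8 and Tlr9 the groups overlapped, and the lowest value was that of replicate 6.

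In KO cells Tlr8, Tlr9 and Tlr4 were not called in the main fit, but were without replicate 6 or with a replicate block. With all 6 replicates Tlr8 had a log2 fold change of 0.66 (SE 0.77, adjusted p = 0.529), Tlr9 0.50 (SE 0.56, adjusted p = 0.514) and Tlr4 -0.32 (SE 0.21, adjusted p = 0.255). Without replicate 6, all 10 receptors passed, where 69.4% of 13844 genes did, with Tlr8 at 0.66 (SE 0.13, adjusted p = 0.000531), Tlr9 at 0.49 (SE 0.18, adjusted p = 0.0239) and Tlr4 at -0.36 (SE 0.095, adjusted p = 0.00417). With the replicate number as a block, 9 of 9 tested receptors passed (71.6% of all genes), Tlr8 at 0.70 (SE 0.095), Tlr9 at 0.51 (SE 0.11) and Tlr4 at -0.30 (SE 0.077). Without KO replicate 2, 6 passed, where 40.0% of genes did. Tlr5, which did not pass the filter on low counts with 6 replicates, had 129 counts in KO vehicle and 4 in KO LPS libraries, a ratio of 23.3 (exact 95% interval 8.89 to 86.9, counting error only). The genotype by LPS interaction was called for 0 of 10 receptors with edgeR (0.0% of 15093 genes), 0 at an unadjusted p under 0.05 (112 of all genes), and 0 with DESeq2. For Tlr2 its 95% interval ran from -0.40 to 0.30 and for Tlr1 from -0.28 to 0.51 on the log2 scale, while for Tlr8 it ran from -2.32 to 2.12. Without KO replicate 6 it was called for 0 of 10 (0.0% of genes), with Tlr8 at -0.11 (SE 0.18). In that fit 1, Tlr5, had an unadjusted p under 0.05, beside 308 of all 14985 genes. Without KO replicate 2 it was called for 0.

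**Figure D2:**
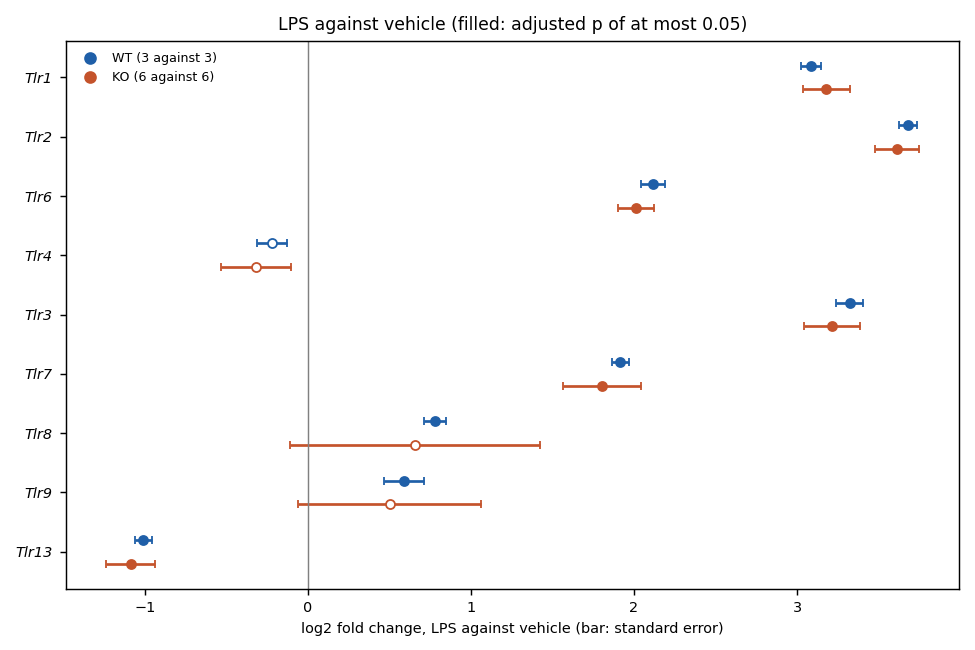
Log2 fold change with LPS against vehicle for 9 receptors (Tlr5, at 0 counts in WT LPS libraries, is left out) in WT (blue) and KO (orange) macrophages, with bars for the standard error and filled points for an adjusted p of at most 0.05. WT and KO points lie close together, from 3.68 and 3.61 for Tlr2 to -1.01 and -1.09 for Tlr13, and the bars of KO Tlr8 and Tlr9 are the widest.

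Transcripts of the proteins that load, traffic or cleave Toll-like receptors did not share 1 direction. Among 18 such accessory genes, 17 were tested and 12 passed with LPS in WT, 5 higher and 7 lower, with a median log2 fold change of -0.21, beside the 63.0% of all genes that passed, 30.6% higher and 32.4% lower. Cd14, which hands LPS to TLR4, rose by 2.86 (SE 0.092), Slc15a3, an endolysosomal transporter, by 1.90 (SE 0.056) and Ly96 by 0.90 (SE 0.12). Lgmn, a lysosomal protease, fell by 0.91 (SE 0.079), Cnpy4 by 0.91 (SE 0.10), and Cnpy3, a chaperone of receptor folding, by 0.77 (SE 0.070). In KO cells 4 of 17 were higher and 5 lower (47.1% of all genes passed), 5 and 9 without KO replicate 6 (69.4%), and 4 and 3 without KO replicate 2 (40.0%). Of 12 adaptors and kinases of the pathway, all tested, 9 were higher and 2 lower in WT, with a median log2 fold change of 0.61, beside the same 30.6% of all genes higher and 32.4% lower. Irak3, an inhibitor of the pathway, rose by 3.83 (SE 0.069), Myd88 by 2.18 (SE 0.083) and the kinase Irak2 by 2.03 (SE 0.083), whereas Irak1 fell by 0.46 (SE 0.056) and Irak4 by 0.19 (SE 0.058). In KO cells 7 of 11 were higher and 2 lower (22.4% and 24.7% of all genes), 8 and 2 without KO replicate 6, and 4 and 0 without KO replicate 2. The LPS response genes Tnf, Il6, Il1b and Nos2 were each higher in both genotypes, 4 of 4.

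CCM without LPS left 0 of 10 receptors past the threshold in WT cells, where 0.057% of 14024 genes passed. At an unadjusted p under 0.05 there were 4, beside 1404 of all 14024 genes. DESeq2 called 2, where it called 1.75% of genes. With no filter beyond 1 count 2 were called (1.47% of genes) and in the blocked fit 1 (1.82% of genes). Tlr1 was at 32.4, 34.4 and 35.5 CPM with vehicle and at 27.0, 25.6 and 29.3 CPM with CCM, without overlap. Its log2 fold change was -0.34 (SE 0.076), with an adjusted p of 0.163 in edgeR and 0.0385 in DESeq2, and 0.027 to 1.0 over 13 alternatives. Tlr8 was at 108, 123 and 124 CPM with vehicle and at 168, 141 and 146 CPM with CCM, a log2 fold change of 0.34 (SE 0.083, adjusted p = 0.199 in edgeR and 0.00554 in DESeq2). With CCM alone Tlr2 was at 66.0, 60.4 and 58.5 CPM and Tlr4 at 70.2, 64.7 and 64.1 CPM, overlapping vehicle, and Tlr13 at 579, 529 and 511 CPM, above vehicle without passing the test (adjusted p = 0.545). In KO cells 0 of 10 passed (0.0% of 13799 genes), and 0 with DESeq2 (0.304% of genes). At an unadjusted p under 0.05 there was 1, beside 333 of all 13799 genes. This was Tlr1, at 24.0, 32.1 and 35.1 CPM with vehicle and at 19.5, 23.0 and 26.6 CPM with CCM, overlapping groups that were lower with CCM in 6 of 6 replicates. Its log2 fold change was -0.39 (SE 0.13, adjusted p = 1.0 without a block), and in the fit blocked on replicate number it was called at -0.38 (SE 0.062, adjusted p = 0.0078), where 3.11% of genes passed. With voom it was the 1 receptor called (2.17% of genes). Without KO replicate 6, 0 receptors were called (1.01% of genes) and Tlr1 was at -0.42 (SE 0.11, adjusted p = 0.113), and without KO replicate 2, 0 were called.

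Under LPS, CCM lowered all 4 of the endosomal receptors that LPS had raised in WT macrophages and raised Tlr13. Of the 9 receptors tested, 6 passed, 5 lower and 1 higher, where 11.9% of 13579 genes passed, 7.78% lower and 4.15% higher. The median log2 fold change was -0.24 over the receptors and 0.01 over all genes. With total counts alone the balance over all genes turned, with 5.4% lower and 11.3% higher of the 16.7% called and a median of 0.09, while 5 receptors were called, 4 lower and 1 higher. Tlr3 changed most, from 94.96, 94.3 and 102 CPM with LPS to 57.5, 57.6 and 51.4 CPM with LPS and CCM, a log2 fold change of -0.81 (SE 0.062, adjusted p = 5.25e-05). Tlr7 fell from 313, 311 and 313 CPM to 237, 232 and 226 CPM (log2 fold change -0.43, SE 0.042, adjusted p = 0.000134). For both genes every library with CCM lay below every library without it, in a comparison that shares its LPS libraries with the comparison of LPS and vehicle.

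Changes of 4 other receptors also passed. Tlr9 fell from 22.6, 20.3 and 25.3 CPM to 18.7, 14.2 and 15.5 CPM (log2 fold change -0.50, SE 0.12, adjusted p = 0.0199). Tlr8 fell from 196, 203 and 210.0 CPM to 174, 175 and 165 CPM (log2 fold change -0.24, SE 0.047, adjusted p = 0.00866). Tlr2 fell from 729, 755 and 745 CPM to 654, 635 and 692 CPM (log2 fold change -0.17, SE 0.045, adjusted p = 0.035). Tlr13, from 249, 244 and 240.4 CPM, rose to 296, 299 and 281 CPM (log2 fold change 0.26, SE 0.044, adjusted p = 0.00393). Tlr1 (-0.13, SE 0.042, adjusted p = 0.0796) and Tlr6 (-0.24, SE 0.075, adjusted p = 0.0662) missed the threshold. With the replicate number as a block Tlr1 (adjusted p = 0.0109) and Tlr6 (adjusted p = 0.00116) were called too, so that 8 receptors passed, where 23.7% of genes did. Tlr4 was at 48.9, 55.3 and 46.8 CPM with CCM, a log2 fold change of 0.06 (95% interval -0.08 to 0.21). Tlr5 had 1 count in the 3 libraries and was not tested. The call of Tlr2 was lost without any 1 of 5 libraries and that of Tlr9 without any 1 of 3 (lowest and highest log2 fold changes without them -0.18 and -0.15 for Tlr2, -0.47 and -0.41 for Tlr9). With total counts alone Tlr2 was at -0.09 (adjusted p = 0.201) and not called. In 1 fit of all 36 libraries 0 receptors were called (0.108% of genes), with Tlr3 at -0.81 and an adjusted p of 0.12.

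The effect of CCM on 3 endosomal receptors differed between LPS and no LPS in WT cells. The LPS by CCM interaction was called for 3 of 10 receptors, all negative, where 2.09% of 14747 genes passed, 1.62% negative. For Tlr3 it was -0.93 on the log2 scale (SE 0.12, adjusted p = 0.00294), for Tlr7 -0.61 (SE 0.060, adjusted p = 0.00122) and for Tlr8 -0.60 (SE 0.10, adjusted p = 0.00828). Without LPS, CCM libraries held Tlr3 at 11.3, 9.52 and 10.98 CPM against 8.85, 10.8 and 9.64 CPM with vehicle, overlapping values. Tlr7 was at 94.3, 92.3 and 95.8 CPM with CCM alone, above its vehicle values of 83.4, 82.5 and 83.3 CPM. With total counts alone 2.35% of genes passed, 0.793% negative and 1.56% positive, and Tlr3 (-0.83), Tlr7 (-0.51) and Tlr8 (-0.50) were called. These 3 calls held without each of the 12 libraries in turn and were lost in 1 fit of all 36 libraries (0.0% of genes).

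In KO macrophages with LPS, 0 of 9 tested receptors passed for CCM, where 0.112% of 13386 genes did. At an unadjusted p under 0.05 there were 2, Tlr3 and Tlr7, beside 1070 of all 13386 genes. DESeq2 called 1, Tlr3, where it called 1.45% of genes. With LPS, Tlr3 was at 62.7, 96.0 and 105 CPM (lowest, median and highest of 6). With LPS and CCM it was at 43.6, 49.2 and 67.8 CPM. Matched by replicate number it was lower with CCM in 6 of 6. In this comparison the numbers missed the rule used for pairing, a correlation above 0.1 for every same-numbered pair (here -0.10 to 0.81). The KO numbers met that rule for LPS and for CCM alone, so whether they pair here is not settled. The groups overlapped only through the LPS library of replicate 6, at 62.7 CPM. Its log2 fold change was -0.79 (SE 0.16, adjusted p = 0.0858), beside -0.81 in WT, and the adjusted p ranged from 0.000648 to 0.601 over 14 alternatives. Tlr7 went from 146, 309 and 340.1 CPM to 118, 201 and 274 CPM, lower in 6 of 6 such matches by number (log2 fold change -0.57, SE 0.24, adjusted p = 0.556). Tlr8 was at -0.68 (SE 0.77) and Tlr9 at -0.58 (SE 0.62).

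Leaving out libraries changed these calls. Without KO replicate 6, Tlr3 was called at -0.83 (SE 0.14, adjusted p = 0.0189), where 1.27% of genes were. Without KO replicate 2, 0 receptors were called (0.0% of genes). Voom called 3 receptors (5.74% of genes), the blocked fit 2 (5.8%) and 1 fit of all 36 libraries 1 (1.81%), Tlr3 among them each time. With KO replicate 6 and KO LPS+CCM replicates 2 and 5 left out, a choice made after seeing the data, 3 receptors were called, where 3.42% of 13766 genes were. These were Tlr3 at -0.64 (SE 0.098, adjusted p = 0.0103), Tlr7 at -0.32 (SE 0.076, adjusted p = 0.0475) and Tlr13 at 0.26 (SE 0.061, adjusted p = 0.0441). In that setting Tlr8 was at -0.23 (SE 0.085) and Tlr9 at -0.05 (SE 0.24). The genotype by CCM interaction under LPS was called for 0 of 9 receptors with edgeR (0.0% of 14546 genes), with 0 at an unadjusted p under 0.05 (72 of all genes) and 0 with DESeq2. In simulated data the edgeR test recovered 4.0% of genes changed by 1 on the log2 scale, so 0 calls alone do not show equal effects. The interaction for Tlr3 was 0.04 on the log2 scale (95% interval -0.43 to 0.50), for Tlr7 -0.12 (-0.82 to 0.58) and for Tlr8 -0.42 (-2.66 to 1.82). Without KO replicate 6 (Tlr3 at -0.01, SE 0.19), without KO replicate 2, and with KO replicate 6 and KO LPS+CCM replicates 2 and 5 left out (Tlr3 at 0.16, SE 0.13), it was also called for 0.

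**Figure D3:**
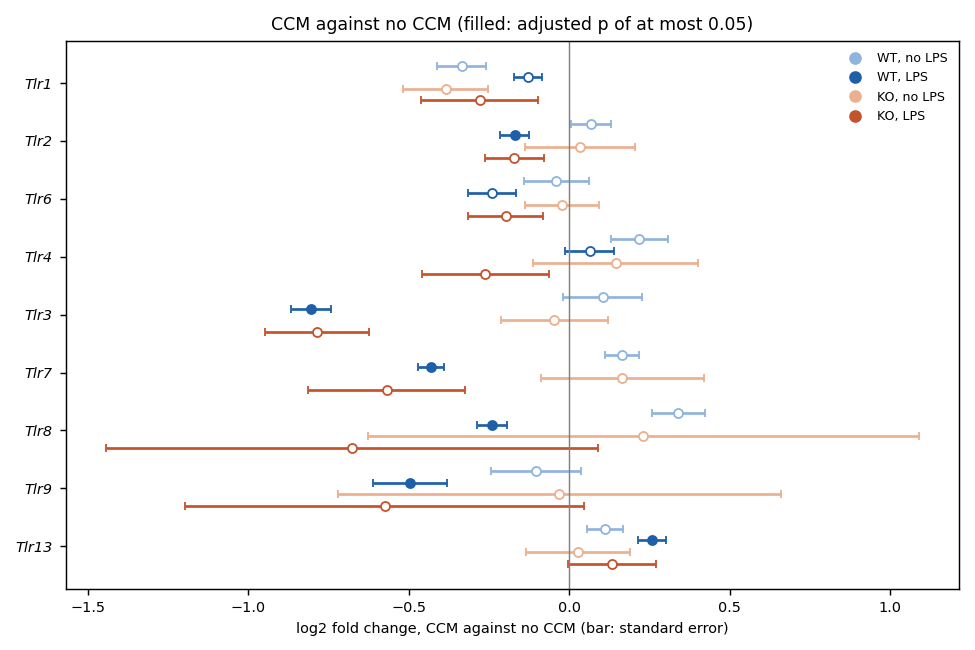
Log2 fold change with CCM against no CCM for 9 receptors (Tlr5 left out), without LPS (pale) and with LPS (dark) in WT (blue) and KO (orange) macrophages, with bars for the standard error and filled points for an adjusted p of at most 0.05. Filled points are found in WT cells with LPS alone, and the Tlr3 points with LPS lie at -0.81 in WT and -0.79 in KO, away from those without LPS at 0.10 and -0.05.

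Among the accessory genes, 5 of 17 tested passed for CCM under LPS in WT, 1 higher and 4 lower, beside 4.15% and 7.78% of all genes. Cd180, a receptor homolog that binds Ly86, fell by 0.50 (SE 0.056), Ly86 by 0.31 (SE 0.081) and Slc15a3 by 0.25 (SE 0.039), and Cnpy4 rose by 0.40 (SE 0.11). Slc15a3 was the 1 accessory gene with a called LPS by CCM interaction (-0.49, SE 0.063, adjusted p = 0.00294). Of 11 adaptors tested, 2 were lower, Irak2 by 0.40 (SE 0.081) and Myd88 by 0.35 (SE 0.043), and 0 higher, beside the 11.9% of all genes called. In KO cells 0 genes of either list passed, and 0 passed without KO replicate 6 or without KO replicate 2. At an unadjusted p under 0.05 there was 1 of each list, beside 1070 of all 13386 genes. With KO replicate 6 and KO LPS+CCM replicates 2 and 5 left out, 1 of each passed (3.42% of all genes), the transporter gene Slc15a4 higher and Myd88 lower.

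KO against WT macrophages gave 0 called receptors with vehicle, 10 tested, and 0 with LPS, 9 tested. In these tests 0.0% of 14385 and 0.0% of 13794 genes passed, so Arntl, the targeted gene, was not called either. Levels of Arntl overlapped (7.27 to 12.9 CPM in WT, 2.13 to 10.7 CPM in KO). These counts therefore cannot show whether loss of Bmal1 changes the receptors. At an unadjusted p under 0.05 there were 0 receptors with vehicle (118 of all genes) and 0 with LPS (105 of all genes). DESeq2 called 0 receptors, with 0.00695% and 0.0145% of all genes. With vehicle, Tlr4 was at 25.4, 61.1 and 64.6 CPM in KO (lowest, median and highest) against 51.8, 64.3 and 53.2 CPM in WT, a log2 fold change of -0.05 (95% interval -0.54 to 0.45). Tlr2 had a log2 fold change of 0.08 with vehicle and 0.01 with LPS, and Tlr13 0.00 and -0.07. Without KO replicate 6 or without KO replicate 2, 0 receptors were called in either state. The median over the receptors with vehicle was -0.03 with all libraries and 0.08 without KO replicate 6, beside 0.01 and 0.00 over all genes, and with LPS it was -0.10 and 0.01. The values of the 10 receptors in KO and WT libraries overlapped in both states.

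The Tlr8 and Tlr9 transcripts were lower in KO replicate 6 than in any other library of the same treatment. Its vehicle library held Tlr8 at 2.41 CPM, the CCM library at 0.87, the LPS library at 5.2 and the LPS+CCM library at 3.88 CPM, against 46.5 to 235 CPM in the other KO libraries. The difference in log2(CPM + 1) from the WT mean of the same treatment ranged from -6.34 to -5.04. By this difference Tlr8 ranked lowest of 9559 genes in each of the 4 libraries. Tlr9 lay 2.76 to 3.73 below on the same scale, at 0.88, 0.15, 2.38 and 1.51 CPM. The added 1 CPM shrinks differences of transcripts at low levels, so those of Tlr9 and Tlr8, and the rank, depend in part on level. Tlr7 (-1.20 to -0.97) and Tlr4 (-1.35 to -0.77) were lower to a smaller extent, while Tlr6 lay at -0.04 to 0.24. Tlr8 (3586 bases), Tlr9 (3478 bases) and Tlr6 (3727 bases) have similar gene lengths and lie in the same length class (class 2 of 5 of equal size, from short to long), whose median log2 difference in these libraries was 0.13 to 0.24.

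In KO LPS+CCM replicates 2 and 5, Tlr8 was at 79.3 and 46.5 CPM and Tlr9 at 6.67 and 4.28 CPM, below the other 3 libraries of the group apart from replicate 6, at 161 to 190.2 and 14.9 to 29.5 CPM. The median log2 difference from WT of the class of longest genes minus that of the shortest was -1.82 to -1.55 in KO replicate 6, -1.05 to -0.61 in these 2 libraries and -0.24 to 0.16 in the other 30 libraries. Summed neutrophil markers were 1068 to 1163 CPM in KO replicate 6, above a median of 562 CPM over all libraries, and summed B cell, T cell and erythroid markers were the highest of each KO group there, at most 11.6 CPM. The part of RNA quality, cell makeup or genotype in the low Tlr8 and Tlr9 levels was not tested.

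**Figure D4:**
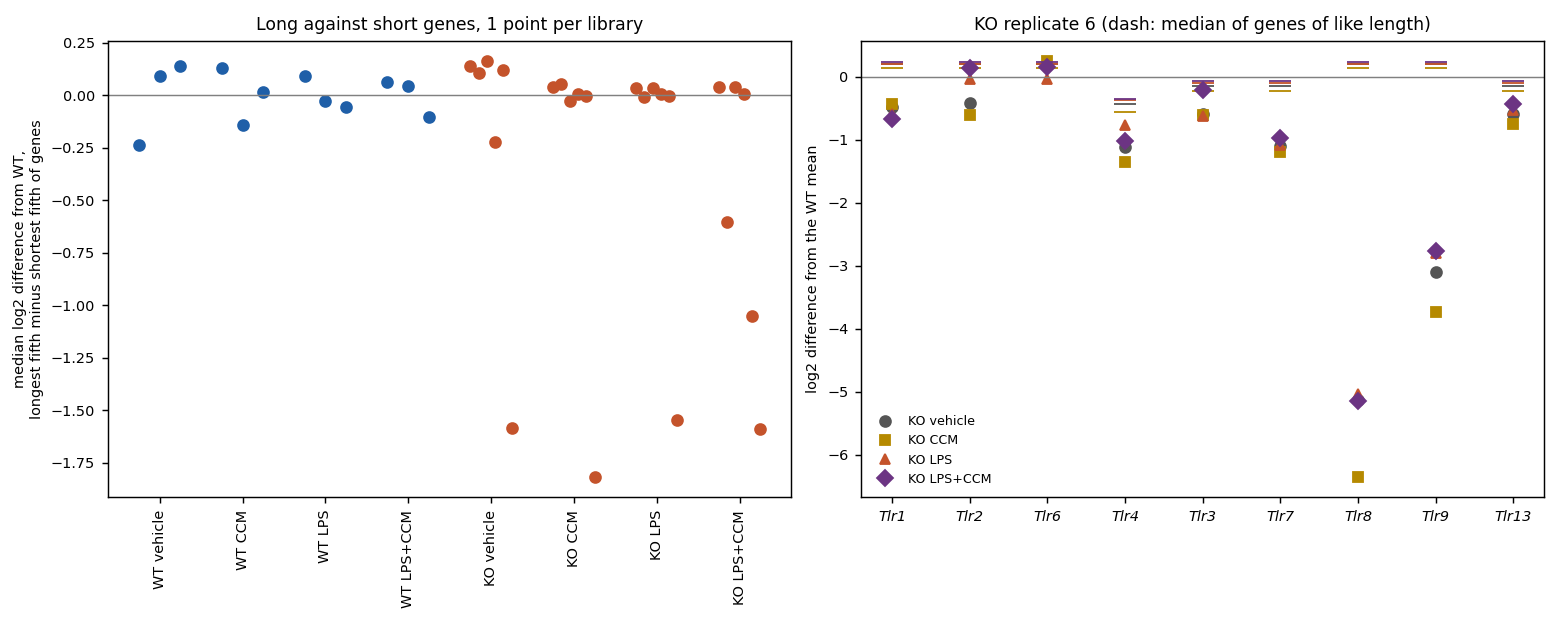
Left, the median log2 difference from WT of the longest of 5 gene length classes minus that of the shortest, 1 point per library (blue WT, orange KO). Right, the difference in log2(CPM + 1) from the WT mean of the same treatment for 9 receptors in the 4 libraries of KO replicate 6, with dashes for the median of genes of like length. The KO replicate 6 points lie at -1.82 to -1.55 on the left, and Tlr8 and Tlr9 stand 2.76 or more below WT on the right, away from their dashes.

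Across the 8 group means, the genes with the pattern most like each receptor were named by Pearson's r of mean log2(CPM + 1) among 12563 genes, as a description over groups that share treatments. Tlr2 was most like Vnn3 and Tnip1 (r = 0.9999 for both), Tlr6 most like Shisa3 (r = 0.9999) and Hrc (r = 0.9997), Tlr1 most like Myo10 and Oasl2 (r = 0.999 for both), and Tlr3 most like Gfi1 (r = 0.9995) and Rnf31 (r = 0.999). Tlr7 was most like Tmem184b (r = 0.999) and Gtpbp2 (r = 0.998), and Tlr13 most like Cd300lb and Ctns (r = 0.999 for both). For Tlr8 these were Gm43071 and Arnt (r = 0.991 for both), for Tlr9 Piezo1 (r = 0.986) and Atm (r = 0.983), and for Tlr4 Asxl1 (r = 0.993) and Pcnx3 (r = 0.992). The KO group means include KO replicate 6, in which Tlr8 and Tlr9 lay far below the other libraries of most groups. Likeness without that replicate is not given. Among the receptors, r was 0.998 between Tlr2 and Tlr6 and 0.993 between Tlr3 and Tlr7. Tlr8 and Tlr9 had r = 0.940, both low in KO replicate 6, and Tlr13 ran against Tlr6 at r = -0.986.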

How the data were processed

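RNA of 36 BMDM cultures was extracted with Trizol, purified on poly-T beads and sequenced as paired ends. The authors trimmed reads with fastp, aligned them to mm10 with HISAT2 2.0.5 and counted them per gene with featureCounts 1.5.0-p3, per the submitters' processing notes, and deposited 1 table of raw gene counts for all libraries. The strand setting is not given in the sources used here. The deposited table also holds gene lengths and positions, and 23675 of its 54532 genes have 0 counts in every library.

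Here only the groups of a comparison entered its fit with edgeR 4.0.16 in R 4.3.3 (filterByExpr, TMM factors, quasi-likelihood test), and p-values were adjusted by Benjamini-Hochberg over all tested genes. Genes with an adjusted p of at most 0.05 were called. Levels are CPM with TMM factors over all 36 libraries. For the CPM per kb the deposited gene length was used. Alternatives were DESeq2 1.42.0, RLE size factors, total counts, no filter beyond 1 count, limma 3.58.1 voom with quality weights, a replicate block, each replicate left out and 1 fit of all libraries. The scripts were tested on simulated data in which 200 genes changed by 1 on the log2 scale. The test recovered 73.5% of them for LPS in WT and 78.0% for CCM under LPS in WT. It recovered 44.5% for CCM under LPS in KO and 4.0% for the genotype by CCM interaction under LPS. The receptors, gene lists and comparisons were chosen with earlier results of these data known. The genes named are the receptors, the called list genes with the largest changes, at most 3 a list and direction, and the 2 genes most like each receptor. Groups came from the labels, which number the replicates but do not tie them to single mice, so p-values measure the spread between these samples, which may be in part technical. No 2 replicates agreed within sampling noise (lowest chi-square per degree of freedom 4.08 over 72 pairs). Intervals of counts cover counting error only.

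Whether replicate numbers pair the samples was checked by the correlation of same-numbered deviations from the group means. Every pair exceeded 0.1 for LPS in KO (0.30 to 0.83), CCM in KO (0.34 to 0.84) and CCM under LPS in WT (0.15 to 0.36), which were taken as paired from the data alone. The main tests of these comparisons did not use the pairing. With the block, 9 receptors were called for LPS in KO (6 in the main test) and 1 for CCM in KO (0 in the main test). For CCM under LPS in WT 8 were called (6 in the main test). The other comparisons missed the rule of a correlation above 0.1 for every pair, which does not show that their numbers fail to pair the samples.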

Additional observations from a re-analysis of the deposited data

Results flagged for a closer look

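Of 40 tests for a KO library far from the other 5 of its group, 10 passed Dixon's 95% critical value of 0.625 for 6 samples, and 9 of the 10 were KO replicate 6. Chance alone flags about 5% of such groups when they are independent. These 40 tests share the same KO libraries, so 1 odd library can raise many flags and this share is no benchmark for them. With CCM, KO replicate 6 held Tlr3 at 6.61 CPM (9.68 to 10.3 in the other 5 libraries), Tlr4 at 25.3 (64.2 to 72.9), Tlr7 at 40.4 (93.7 to 111), Tlr8 at 0.87 (140.0 to 171), Tlr9 at 0.15 (13.03 to 17.0) and Tlr13 at 319 CPM (485 to 572). With LPS it held Tlr7 at 146 CPM (283 to 340.1) and Tlr8 at 5.2 CPM (184 to 235), and with vehicle Tlr7 at 38.2 CPM (78.3 to 101). The other flag was Tlr5 in KO LPS+CCM replicate 3 at 0.055 CPM, which is 1 count, where the other 5 libraries had 0. With 5 values of 0 the Dixon ratio is 1.0 at any count in the remaining library.

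The effect of CCM differed between LPS and no LPS in WT cells by the interaction test for Tlr3 (-0.93 on the log2 scale), Tlr7 (-0.61) and Tlr8 (-0.60).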

How the results depend on the processing

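Of 330 comparisons of a called receptor value with an alternative, 309 kept their direction and call and 21 lost the call, 11 of them in 1 fit of all 36 libraries, and none reversed. For LPS in KO, leaving out 1 replicate number gave 6 to 10 called receptors, 10 without KO replicate 6. Over all genes it gave 5429 to 9612 calls (6433 in the main test), with 9612 without KO replicate 6. For CCM in WT the count rose from 0 to 2 with DESeq2, 2 with no filter and 1 with the replicate block (Tlr1). In that comparison the replicate numbers missed the rule for pairing, with same-numbered correlations of 0.05 to 0.46. For CCM in KO the count rose from 0 to 1 with voom and 1 with the replicate block. For CCM under LPS in KO the count rose from 0 to 1 with DESeq2, 3 with voom and 1 in 1 fit of all 36 libraries. With the replicate block it was 2 (Tlr3 and Tlr7), where the numbers missed the rule for pairing. With 1 replicate number left out it was 0 to 1, beside 0 to 170 of all genes. With KO replicate 6 and KO LPS+CCM replicates 2 and 5 left out it was 3. In 1 fit of all 36 libraries 0 receptors were called for CCM under LPS in WT (6 in the report) and 0 for the LPS by CCM interaction (3 in the report), and 7 for LPS in WT (9 in the report, without Tlr8 and Tlr9). That fit estimates 1 spread over all groups, KO replicate 6 included. For CCM under LPS in WT, leaving out 1 library gave 4 to 5 called receptors, beside 893 to 1352 of all genes (1621 in the main test). For LPS in WT it gave 9 to 10, beside 8357 to 9070 of all genes (9139 in the main test). The block changed no other call beyond those given here and in the report, except Tlr4 with LPS in WT (adjusted p = 0.0204), and the causes of these shifts were not tested. Tlr5 counts were too few after LPS to test for CCM effects.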
